A study of Mus musculus with 16 samples.

Results

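The S100 proteins are a family of small calcium-binding proteins, and 8 of their genes were followed here in dendritic cell progenitors of mouse bone marrow: S100a1, S100a4, S100a6, S100a8, S100a9, S100a10, S100a11 and S100a13. Their probes were found by name, as every noncontrol probe whose gene name on the array equals one of these symbols. They are 8 of 31093 gene names and were read by 10 probes of the 39429 noncontrol probes on the array, with a pair of probes each for S100a1 and S100a4 and a single probe for each of the other genes. A gene with a pair of probes is led by its brighter probe.

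The arrays compared monocyte-dendritic cell progenitors (MDPs) and common dendritic cell progenitors (CDPs), a step further along the same lineage, sorted from the bone marrow of female C57/Bl6 mice. Tumor-bearing mice (PyMT) carried orthotopic mammary tumors of 1.5 cm diameter grown from PyMT B6 cells, an established line that comes from mammary tumors of the MMTV-PyMT transgenic mouse and has the same C57/Bl6 background, and the controls (Normal) were tumor-free mice matched in age, whose age the labels do not state. Per the study's methods, marrow was depleted of lineage-positive cells before sorting. By the legend of the study's microarray figure each sample pooled a pair of mice, so a value is a mean over those animals. There were 4 groups of 4 arrays, MDP Normal, MDP PyMT, CDP Normal and CDP PyMT, each with replicates numbered 2 to 5, and a single tumor line stands for all tumors. The 16 arrays lay on 4 slides, and between 59% and 71.6% of the probes on an array were well above background. The progenitor genes Flt3, Csf1r, Kit, Cx3cr1, Irf8 and Cd34 were above background on all arrays, 6 of 6. Kit, the receptor of stem cell factor that falls with commitment, was lower in CDPs than in MDPs. Its log2 differences were -2.59 (Normal) and -3.81 (PyMT). These genes were listed as markers of the MDP and CDP gate, so the Kit difference is no independent check of the sort.

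Most S100 proteins, though not all, carry a pair of EF-hand loops that hold calcium, and on binding it they open a surface that grips a partner protein. S100A8 and S100A9 pair up as calprotectin, fill the cytosol of neutrophils and of some monocytes, and act as alarm signals through TLR4 and RAGE when released. S100A10 is held in a complex with annexin A2, S100A4 binds the heavy chain of non-muscle myosin, S100A6 (calcyclin) and S100A11 bind other annexins, S100A1 acts on calcium handling, and S100A13 takes part in the release of growth factors that lack a signal peptide.

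The family resemblance is visible in the array itself, and the probes below are shown because they are what was hybridised for 4 of the genes. In capitals is TTCNAGGAGT (N is any base, read on the strand printed), which codes for the end of the second EF-hand loop and was picked out after the probes were seen. It was found in 4 of the 10 S100 probes, and in 17 (0.0431%) of the 39429 probes of the array. All are on chromosome 3 of mm9, at chr3:90473778-90473837 (S100a8, plus strand), chr3:90418160-90418219 (S100a6, plus), chr3:90409734-90409793 (S100a4, plus) and chr3:90315191-90315250 (S100a1, minus).
S100a8: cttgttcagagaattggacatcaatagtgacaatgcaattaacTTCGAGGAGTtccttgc
S100a6: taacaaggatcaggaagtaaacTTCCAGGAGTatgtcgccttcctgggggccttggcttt
S100a4, other probe: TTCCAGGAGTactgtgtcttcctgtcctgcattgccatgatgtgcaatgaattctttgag
S100a1: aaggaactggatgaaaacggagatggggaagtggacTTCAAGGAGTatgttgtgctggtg

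Levels are given below as the log2 of the array's processed signal minus the 75th percentile of the same array, so 0 is a fairly bright probe and a step of 1 is a doubling. They compare groups for a probe, and say nothing of one gene against another. All 10 probes were tested, 9 of them being well above background on all 16 arrays and S100a9 on 3 of the 4 MDP Normal arrays and all others. No S100 spot was saturated. A probe was called when the false discovery rate (FDR, the Benjamini-Hochberg adjusted p over all 27434 tested probes, limma) was under 0.05 with a fold change above 1.5, and exact two-sided permutation tests of 4 against 4 arrays are given beside it, which cannot go below p = 0.0286. The labels do not say how the replicates were separated, so p-values measure the spread between these samples.

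**Figure D1:**
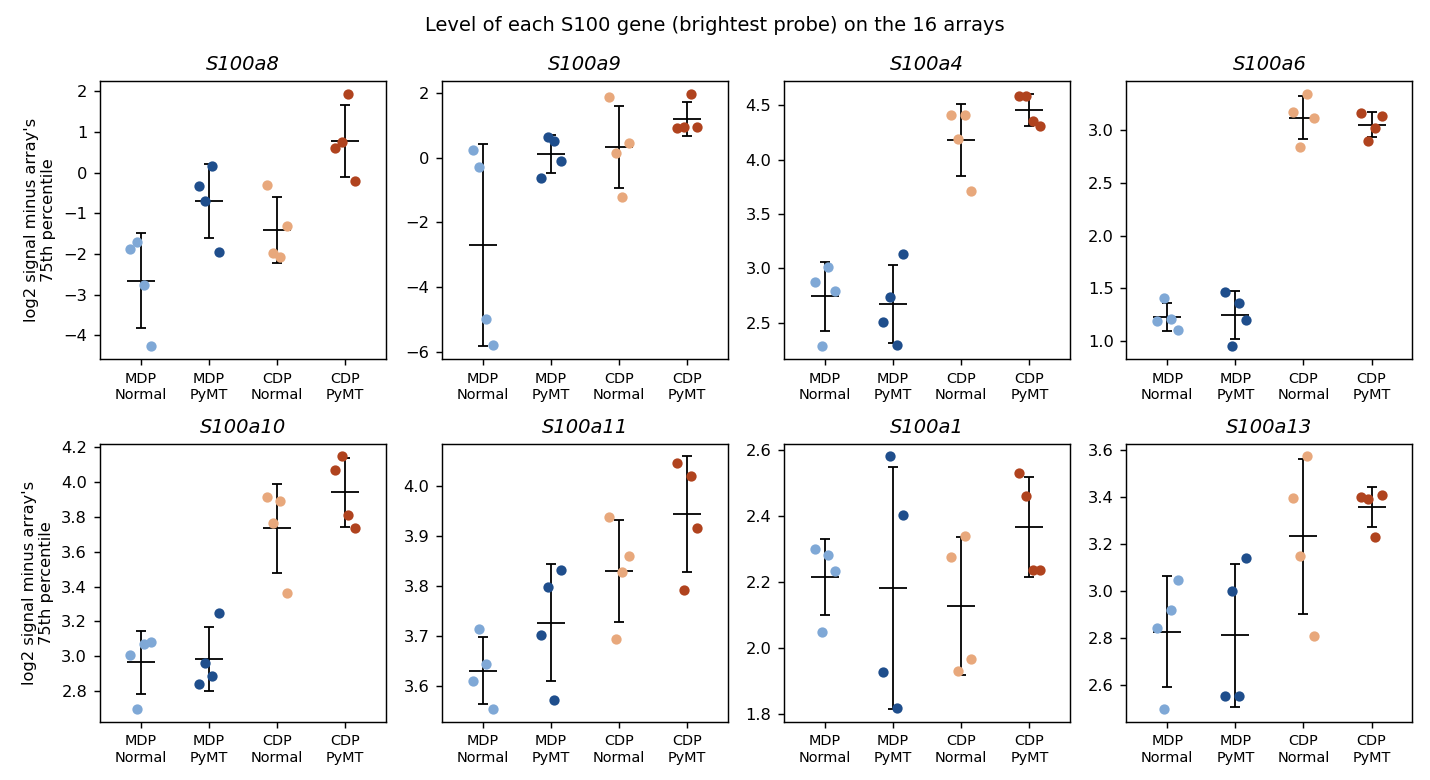
Level of each S100 gene by its brightest probe (vertical axis, log2 signal minus the array's 75th percentile, with a scale of its own in each panel) in the 4 groups (horizontal axis). Points are the 4 arrays of a group in order of replicate number, the bar is the mean and the whiskers 1 SD. S100a4, S100a6 and S100a10 separate CDPs from MDPs, while S100a8 is highest in CDP PyMT and lowest in MDP Normal.

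S100a4, S100a6 and S100a10 were higher in CDPs than in MDPs, with and without a tumor. S100a6 was 3.70-fold higher in CDPs of Normal mice and 3.49-fold higher in those of PyMT mice. S100a10 was 1.71-fold and 1.94-fold higher. For S100a4 the size depended on the probe, 2.70-fold and 3.45-fold by the brighter probe and 5.99-fold and 6.84-fold by the other. These 4 probes were called in both comparisons, 4 of 10, where 6.07% of all tested probes were called for Normal mice (2.93% higher in CDPs) and 7.24% for PyMT mice (3.53% higher in CDPs).

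S100a6, the calcyclin gene, read 1.19, 1.41, 1.21 and 1.11 on the MDP Normal arrays (replicates 2, 3, 4 and 5) and 1.47, 0.95, 1.36 and 1.20 on the MDP PyMT arrays. It read 3.17, 2.84, 3.34 and 3.12 in CDP Normal and 3.16, 2.89, 3.02 and 3.13 in CDP PyMT. Every CDP array was above every MDP array, by a gap several times the spread within a group. The log2 difference was 1.89 (95% interval 1.57 to 2.21, adjusted p = 5.65e-06) in Normal and 1.81 (1.48 to 2.13, adjusted p = 9.36e-06) in PyMT mice by limma. Group membership took 97.3% of the variance of S100a6 over the 16 arrays, which is a description of these arrays.

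S100a4, also called metastasin or Fsp1, read 2.88, 2.28, 3.02 and 2.79 in MDP Normal and 2.51, 2.74, 2.30 and 3.13 in MDP PyMT by its brighter probe. In CDP Normal it read 4.41, 4.19, 4.41 and 3.71, and in CDP PyMT 4.59, 4.58, 4.36 and 4.31. The CDP and MDP arrays did not overlap here either, and the tumor groups did. The other probe, whose sequence is printed above, read 0.39 to 1.02 in MDP Normal, 0.12 to 0.84 in MDP PyMT, 3.13 to 3.33 in CDP Normal and 3.08 to 3.53 in CDP PyMT. Its log2 difference was 2.58 (95% interval 2.20 to 2.97, limma adjusted p = 2.04e-06) in Normal mice against 1.44 (0.97 to 1.90, adjusted p = 0.00129) by the brighter probe. In PyMT mice the values were 2.77 (2.39 to 3.16, adjusted p = 8.66e-07) and 1.79 (1.32 to 2.25, adjusted p = 0.000211). The probes thus gave the same direction and intervals that did not meet, so the size of the S100a4 difference is uncertain between them, and the reason was not tested.

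S100a10, the annexin A2 partner, read 3.01, 2.69, 3.07 and 3.08 in MDP Normal and 2.84, 2.96, 2.88 and 3.25 in MDP PyMT. It read 3.92, 3.76, 3.89 and 3.36 in CDP Normal and 4.07, 4.15, 3.81 and 3.74 in CDP PyMT. The lowest CDP array was still above the highest MDP array. The log2 differences were 0.77 (95% interval 0.42 to 1.13, limma adjusted p = 0.0119) and 0.96 (0.60 to 1.31, adjusted p = 0.00316). With the other 2 groups left out of the fit, the Normal difference stayed at 0.77 with an adjusted p of 0.0535, above the threshold, the lowest over the alternatives being 0.000336.

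Across the family 4 of the 10 probes had CDP and MDP arrays that did not overlap in Normal mice (13.3% of all probes did not overlap) and 6 of 10 in PyMT mice (14% of all probes). Beside the 4 called probes, these were S100a9 and S100a13 in PyMT mice. S100a13 read 2.84, 2.5, 2.92 and 3.05 in MDP Normal, 2.55, 3.0, 2.55 and 3.14 in MDP PyMT, 3.40, 3.15, 3.57 and 2.81 in CDP Normal and 3.40, 3.39, 3.23 and 3.41 in CDP PyMT. The differences of 0.41 (95% interval -0.01 to 0.82, limma adjusted p = 0.308) and 0.55 (0.13 to 0.96, adjusted p = 0.10) were not called. Leaving out MDP PyMT replicate 5 brought the latter to 0.66 with a limma adjusted p of 0.0495. Over the 8 arrays left out in turn that p ran from 0.0495 to 0.261. Within slides 2 and 3 the difference in PyMT mice was 0.23 and 0.27, each 1 array minus 1 array. The MDP PyMT arrays that read 2.55 were on slide 1, which held no CDP PyMT array.

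S100a11 and S100a1 showed small differences between the cell types. S100a11 ran from 3.55 to 3.71 in MDP Normal, 3.57 to 3.83 in MDP PyMT, 3.69 to 3.94 in CDP Normal and 3.79 to 4.05 in CDP PyMT, with differences of 0.20 (95% interval -0.05 to 0.45) and 0.22 (-0.03 to 0.47). The array files place its probe on another chromosome than RefSeq places the gene, so these are the values of the probe annotated as S100a11. S100a1 ran from 2.05 to 2.30, 1.82 to 2.58, 1.93 to 2.34 and 2.24 to 2.53 in the same order of groups, with differences of -0.09 (-0.47 to 0.30) and 0.18 (-0.20 to 0.57), and its other probe gave -0.24 and 0.12. All 4 groups overlapped for both S100a1 probes.

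**Figure D2:**
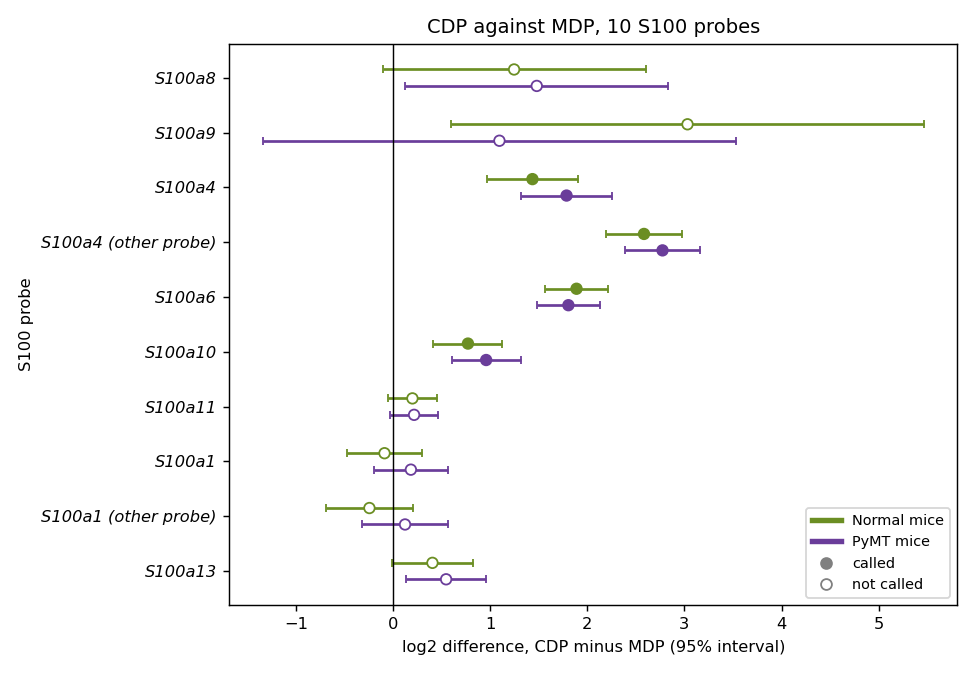
Log2 difference of CDPs minus MDPs (horizontal axis, with 95% intervals from limma) for the 10 S100 probes (vertical axis), in Normal mice (green) and PyMT mice (purple). Filled points were called, and these are both S100a4 probes, S100a6 and S100a10, each above 0 in both kinds of mice.

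Slides held mixtures of groups, which allowed the same differences to be read within a slide. The layout was uneven: slide 1 held 2 MDP PyMT arrays and no CDP PyMT array, and slide 4 held 2 CDP PyMT arrays and no MDP PyMT array. The comparison of CDPs with MDPs in PyMT mice was thus partly tied to slide. A within-slide difference is 1 array minus 1 array, or uses a mean where a group had 2 arrays on the slide. For S100a6 the CDP minus MDP differences in Normal mice were 1.70, 2.16, 2.06 and 1.63 on slides 1 to 4, and in PyMT mice 2.07 and 1.93 on slides 2 and 3. For S100a10 they were 0.67, 0.89, 0.83 and 0.70, and then 0.85 and 0.49. For the brighter S100a4 probe they were 1.43, 1.53, 1.61 and 1.17, and then 1.62 and 1.17. All were above 0, and the 4 probes were also called with slide as a fixed or as a random block. S100a13 and S100a1 moved more with the slide than the others did, slide taking 64.3% and 57.2% of their variance over the 16 arrays, against 6.75% for S100a6.

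The partners of S100 proteins were read from a list of 12 annexins and other binding partners, all tested. In Normal mice 4 of 12 were called higher in CDPs and none lower, and in PyMT mice 2 were called higher and 1 lower. Over all tested probes 6.07% were called in Normal mice (2.93% higher in CDPs) and 7.24% in PyMT mice (3.53% higher). The list's median difference was 0.52 in Normal mice, where the median over all tested genes was 0.02, and 0.41 in PyMT mice, where it was 0.23. The called genes, named because they are few, included Anxa2, the partner of S100A10, at 0.77 in Normal mice (limma adjusted p = 0.00407) and 0.54 (adjusted p = 0.0316, under the fold threshold) in PyMT mice. Ahnak, a giant scaffold bound by the S100A10 and annexin A2 complex, differed by 1.33 (adjusted p = 0.00625) and 1.48 (adjusted p = 0.0033). Anxa6 differed by 0.73 and 0.67, both called, Anxa5 by 0.92 in Normal mice (adjusted p = 0.0179) and 0.51 (adjusted p = 0.149) in PyMT mice, and Anxa3 was lower in CDPs of PyMT mice by a difference of -0.66 (adjusted p = 0.0394). Myh9, the myosin heavy chain that S100A4 binds, stood at 0.47 and 0.40, under the fold threshold.

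A second list, of 10 other proteins abundant in the cytosol or granules of neutrophils and monocytes, had 3 genes called higher and 1 lower in CDPs, in both kinds of mice. The shares called over all tested probes were the 6.07% and 7.24% given above. Lyz2, a lysozyme gene of myeloid cells, was higher by 2.29 and 2.75, Lyz1 by 1.05 and 1.28, and Lsp1, a leukocyte actin-binding protein, by 2.05 and 2.09. Srgn, the granule proteoglycan serglycin, was lower by differences of -1.26 and -1.0. The list's median difference was 0.53 in Normal and 0.59 in PyMT mice, beside 0.02 and 0.23 for all genes.

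With a tumor, S100a8 stood higher in both progenitors but was not called, and S100a4, S100a6, S100a10, S100a11, S100a1 and S100a13 showed no called change. In CDPs S100a8 was 4.57-fold higher in PyMT than in Normal mice and in MDPs 3.88-fold. None of the 10 S100 probes was called in CDPs, where 1.79% of all tested probes were called (0.802% higher), and none in MDPs, where 0.062% were. By limma's unadjusted p, 1 of the 10 S100 probes in CDPs and 2 in MDPs were under 0.05. Of all 27434 tested probes, 3752 in CDPs and 2849 in MDPs were.

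S100a8 read -0.30, -1.97, -2.08 and -1.30 in CDP Normal (replicates 2 to 5) and 0.61, 0.75, 1.94 and -0.20 in CDP PyMT. The groups did not overlap, although by a narrow margin between replicate 2 of the one and replicate 5 of the other. In MDPs it read -1.88, -1.72, -2.77 and -4.28 in Normal and -0.32, -0.69, 0.17 and -1.96 in PyMT mice. Here MDP PyMT replicate 5 lay among the Normal arrays, and both replicates numbered 5 were the lowest of their group.

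The log2 change of S100a8 in CDPs was 2.19 (SE 0.63, 95% interval 0.84 to 3.54, limma adjusted p = 0.104, exact permutation p = 0.0286). In MDPs it was 1.96 (SE 0.63, 0.60 to 3.31, adjusted p = 0.337, exact permutation p = 0.0857). S100a8 was the only one of the 10 S100 probes whose CDP groups did not overlap, where 11.1% of all probes did not, and in MDPs no S100 probe was free of overlap, where 5.22% of all probes were.

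The call on S100a8 in CDPs turned on how the slide and the background were handled. With slide as a fixed block its change was 2.45 (adjusted p = 0.0333) and with slide as a random block 2.40 (adjusted p = 0.0151), both called, and with normexp background correction 2.01 (adjusted p = 0.0377). Over all the alternatives its adjusted p ran from 0.0151 to 0.201. Within slides 2, 3 and 4 the PyMT minus Normal differences in CDPs were 4.03, 0.11 and 2.65. Within slides 1, 2 and 3 those in MDPs were 1.64, 1.18 and 2.31, and the change stayed uncalled there with slide as a fixed block (1.69, adjusted p = 0.172). The MDP change was lowest, at 1.26, with normexp background correction. All 6 within-slide differences were above 0, while their size in CDPs ranged from near 0 to 4.03.

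S100a9, the other chain of calprotectin, was the most variable member. In MDP Normal replicates 2 and 3 read 0.25 and -0.28, and replicates 4 and 5 read -5.00 and -5.80, so that the group's SD was 3.13. MDP PyMT read -0.62, 0.64, 0.52 and -0.11, CDP Normal 1.89, 0.16, -1.21 and 0.46, and CDP PyMT 0.93, 0.95, 1.98 and 0.94. Replicates 2 and 3 of MDP Normal were thus level with the MDP PyMT arrays, and the low pair, on slides 4 and 3, carried the low mean of its group.

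The log2 change of S100a9 was 2.82 (SE 1.14, 95% interval 0.38 to 5.25) in MDPs, with a limma adjusted p of 0.446 and an exact permutation p of 0.171. In CDPs it was 0.88 (-1.56 to 3.32), with an adjusted p of 0.81. The MDP change was 1.79 without MDP Normal replicate 5, was 3.80 without replicate 2, and stayed uncalled with any single array left out. With normexp background correction it was 1.50. Within slides it was 0.23, 0.39 and 5.68 in MDPs (slides 1 to 3) and 3.19, -0.94 and 0.79 in CDPs (slides 2 to 4), so neither its size nor, in CDPs, its sign held from slide to slide.

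Between the cell types S100a8 and S100a9 were not called. S100a8 was higher in CDPs by 1.25 in Normal mice (95% interval -0.11 to 2.60, limma adjusted p = 0.354) and 1.48 in PyMT mice (0.13 to 2.83, adjusted p = 0.156). S100a9 differed by 3.03 (0.59 to 5.47, adjusted p = 0.155) and by 1.1 (-1.34 to 3.53, adjusted p = 0.493), the latter with no overlap between the arrays. In order of its means S100a8 ran from CDP PyMT (0.78) through MDP PyMT (-0.70) and CDP Normal (-1.41) to MDP Normal (-2.66). No pair of neighbours in that order reached an exact permutation p under 0.05 (p = 0.0571, 0.314 and 0.171). With 4 against 4 arrays that does not show that they were equal. For S100a9 the order was CDP PyMT, CDP Normal, MDP PyMT and MDP Normal. Its neighbours did not reach an exact permutation p under 0.05 either (p = 0.286, 0.8 and 0.171).

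**Figure D3:**
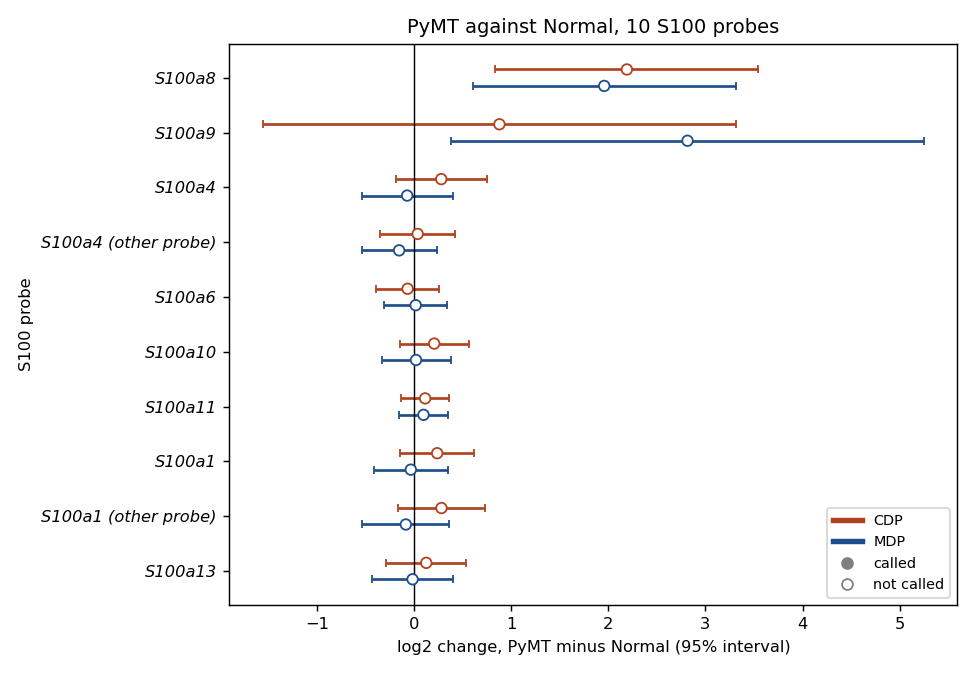
Log2 change of PyMT minus Normal mice (horizontal axis, with 95% intervals from limma) for the 10 S100 probes (vertical axis), in CDPs (red) and MDPs (blue). All points are open because none was called. S100a8 in both cell types and S100a9 in MDPs have intervals above 0, and the intervals of the other genes include 0.

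The other 8 probes, of 6 genes, moved little with the tumor. Their log2 changes ran from -0.07 to 0.28 in CDPs, with no adjusted p below 0.652, and from -0.15 to 0.10 in MDPs, with none below 0.714. The 95% intervals of all 8 lay within -0.39 to 0.75 in CDPs and within -0.54 to 0.40 in MDPs, so changes beyond those bounds were outside the intervals. The median change over all tested probes was 0.08 in CDPs and -0.11 in MDPs. The genes that separated CDPs from MDPs were among these 8 probes: S100a6 changed by -0.07 and 0.02, S100a10 by 0.21 and 0.02, and S100a4 by 0.28 and -0.07.

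Whether the tumor change differed between CDPs and MDPs was tested as an interaction, and none of the 10 S100 probes was called, where 0.0146% of all tested probes were. For S100a8 the difference of the changes was 0.23 (95% interval -1.68 to 2.15, limma adjusted p = 0.924) and for S100a9 -1.94 (-5.39 to 1.51, adjusted p = 0.749). Those wide intervals leave room for a difference of several fold in either direction. No S100 probe reached an unadjusted limma p under 0.05 in that test, where 1110 of all 27434 tested probes did.

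**Figure D4:**
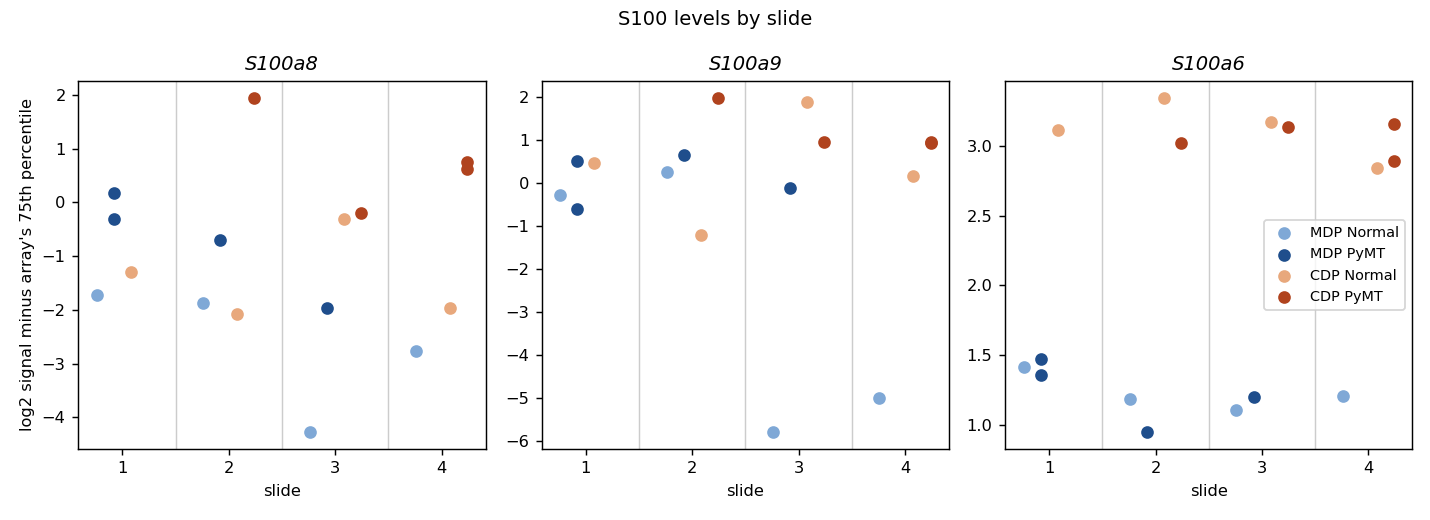
Levels of S100a8, S100a9 and S100a6 (vertical axes, log2 signal minus the array's 75th percentile) on the 16 arrays by slide (horizontal axis, slides 1 to 4), coloured by group. On each slide the CDP arrays of S100a6 lie above its MDP arrays, S100a8 is higher in PyMT than in Normal arrays of the same cell type where both are present, and the low S100a9 arrays are the MDP Normal arrays of slides 3 and 4.

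Other genes around S100a8 and S100a9 were read from lists. Of 8 receptors and signalling partners 6 were tested and none was called in any of the 4 comparisons of groups. Tlr4 and Cd36 were among the genes too dim to test. Myd88, the adaptor of TLR4, had changes of 0.78 in CDPs (limma adjusted p = 0.352) and 1.22 in MDPs (adjusted p = 0.289), and Ager, which encodes RAGE, -0.11 and -0.33. Of 8 transcription factors known to act on these genes, all tested, none was called with the tumor. In CDPs and MDPs Cebpb stood at 0.56 and 0.77, Stat3 at 0.41 and 0.30 and Spi1 (PU.1) at 0.22 and 0.16. Cebpd stood at 0.26 and 0.46 and Hif1a at 0.17 and 0.22. Cebpa stood at 0.007 and 0.05, Irf8 at -0.02 and -0.13 and Cebpe at 0.62 and -0.27. Cebpe, a factor of granule-forming neutrophil precursors, was lower in CDPs than in MDPs of Normal mice by a difference of -1.73 (adjusted p = 0.0131). Of the 10 other S100 genes listed, 5 were tested (S100a2, S100a3, S100a7a, S100a14 and S100a16) and none was called in any comparison.

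Markers of neutrophils gave mixed values with the tumor. Of 12 listed markers 11 were on the array, 9 were tested and 2 were called higher with the tumor in each cell type, none lower. Over all tested probes 1.79% were called in CDPs (0.802% higher) and 0.062% in MDPs. Lcn2 (lipocalin 2) rose by 2.70 in CDPs (limma adjusted p = 0.00195) and 2.17 in MDPs (adjusted p = 0.0493). Mmp8, a neutrophil collagenase, rose by 1.87 in CDPs (adjusted p = 0.00362) and Chil3, the chitinase-like protein Ym1, by 3.21 in MDPs (adjusted p = 0.0493). In the other cell type, where they were not called, Mmp8 had a change of 1.04 in MDPs (adjusted p = 0.24) and Chil3 of 2.08 in CDPs (adjusted p = 0.057). Retnlg, a resistin-like gene, stood at -0.27 in CDPs and 2.76 in MDPs (adjusted p = 0.132), Cxcr2, a chemokine receptor of neutrophils, at 0.89 and -0.17 and Cd177 at 0.01 and -0.73, none called. The granule genes Ngp, Ltf and Camp had changes of -0.25, -0.45 and -0.65 in CDPs and -0.86, -0.19 and -1.56 in MDPs, none called. The list's median change was 0.01 in CDPs and -0.17 in MDPs, beside 0.09 and -0.14 over all tested genes.

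The summed level of the neutrophil list, on the same log2 scale, ran from 2.48 to 3.85 in CDP Normal and 4.38 to 5.43 in CDP PyMT, and from 1.57 to 2.28 in MDP Normal and 3.38 to 4.46 in MDP PyMT. A few bright members carried that sum, since in CDP PyMT the means of Chil3, Lcn2 and Mmp8 were 3.86, 3.30 and 2.29 and the next was Retnlg at -1.56. The mean log2 level over the 11 genes ran from -2.97 to -1.74 in CDP Normal, -2.21 to -1.61 in CDP PyMT, -3.60 to -2.71 in MDP Normal and -3.18 to -2.09 in MDP PyMT, with overlap between Normal and PyMT arrays in both cell types. Between 6 and 9 of its 11 genes were above background on an array, and Mmp9 and Stfa1 were too dim to test. Of 6 markers of granule-forming promyelocytes 2 were called higher in CDPs, Elane by 1.12 (adjusted p = 0.0227) and Gfi1, a repressor needed for neutrophil development, by 1.73 (adjusted p = 0.0383), and none in MDPs. Vcan, which encodes versican, was the 1 called of 8 tested monocyte and macrophage markers, higher by 3.97 in CDPs (adjusted p = 0.0406). Kit was called lower in CDPs (-1.34), 1 of the 6 genes listed for the MDP and CDP gate. Also called lower there was the lectin gene Cd209a (-3.25), 1 of 7 tested dendritic cell markers. Of 6 plasmacytoid dendritic cell markers, Spib (-3.13) and Bst2 (-0.69) were called lower, and of 4 tested T and NK cell markers Klrd1 (-4.56). In the same order the list medians were -0.79, -0.73 and -0.05, beside 0.09 over all tested genes. In Normal mice Cd209a, Spib, Bst2 and Klrd1 were called higher in CDPs than in MDPs (5.24, 4.15, 0.80 and 3.81). In MDPs Cd209a (-3.55) was called lower with the tumor, 1 of 7 tested dendritic cell markers. The B cell, erythroid, megakaryocyte, mast cell and basophil, and mammary tumor cell lists had no call with the tumor in either cell type. In samples of sorted but bulk RNA, more cells of a type and more RNA per cell cannot be told apart, and the part of either in the S100a8 values was not tested.

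**Figure D5:**
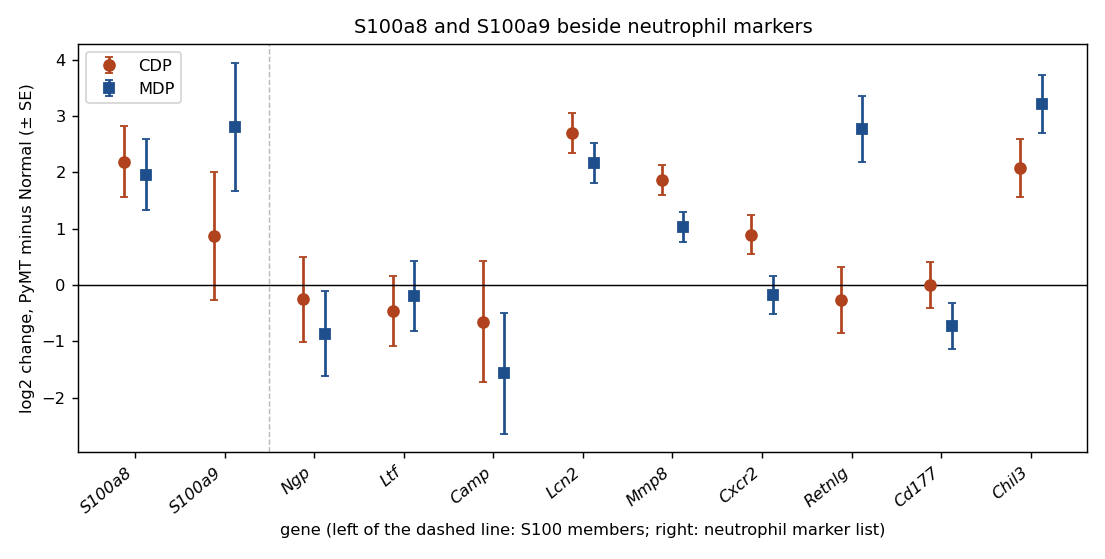
Log2 change of PyMT minus Normal mice (vertical axis, points with whiskers of 1 SE from limma) for S100a8 and S100a9 and for the 9 tested genes of the neutrophil list (horizontal axis), in CDPs (red circles) and MDPs (blue squares). Lcn2, Mmp8 and Chil3 lie above 0 in both cell types beside S100a8 and Retnlg in MDPs, while Ngp, Ltf and Camp lie below 0.

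The genes whose levels were most like that of S100a8 over the 16 arrays, by Pearson's r, were Sbno2 (0.925), Gngt2 (0.914), Ctsc (0.907), Camk2d (0.890) and Chil3 (0.885). After each slide's mean was subtracted the values were 0.946, 0.930, 0.920, 0.920 and 0.909, and after each group's mean was subtracted they were 0.756, 0.704, 0.668, 0.581 and 0.70. Of these Ctsc, which encodes the protease that activates granule enzymes, and Camk2d had adjusted p-values under 0.05 with the tumor in CDPs (limma, changes of 1.34 with 0.00887 and 1.51 with 0.0240). For S100a9 they were Mboat7 (0.838), Cpeb4 (0.814), S100a8 (0.806), Hsbp1l1 (0.806) and LOC105247324 (0.805). S100a8 was thus among the 5 most like S100a9, and kept an r of 0.718 after group means were removed. The arrays share their groups and slides, and none of these values was tested.

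Among the members, S100a4, S100a6 and S100a10 varied together across groups. S100a4 and S100a10 had an r of 0.985, and of 0.917 after group means were removed, whereas S100a4 and S100a6 had 0.915 and then -0.275. S100a6 thus shared the difference between cell types with S100a4 but not the remaining variation between arrays. Slide took 35.2% of the variance of S100a4 and 38.6% of that of S100a10 over the 16 arrays, against 6.75% for S100a6. No r was taken with group and slide means both removed, so the part of slide in that remaining variation was not tested. S100a1 and S100a13, which start from opposite strands of one stretch of chromosome 3 with 204 bases shared between their RefSeq promoter windows, had an r of 0.629, and 0.803 after group means were removed. After slide means were removed it was 0.123.

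Promoters of the genes that moved together are shown for S100a8 and S100a9, whose levels had the r of 0.806 given above, and for S100a4 and S100a6, which share the CDP difference. Each runs from 250 bases before to 50 after the start in RefSeq's GRCm38.p6, on the gene's strand, at chr3:90668821-90669120 (S100a8, plus), chr3:90695672-90695971 (S100a9, minus), chr3:90603520-90603819 (S100a4, plus) and chr3:90612644-90612943 (S100a6, plus). Capitals mark matches, on either strand, to TTNNGCAA (C/EBP), TTCNNNGAA (STAT), GAGGAA (PU.1) or TGANTCA (AP-1), which overlap nowhere in these windows.
S100a8: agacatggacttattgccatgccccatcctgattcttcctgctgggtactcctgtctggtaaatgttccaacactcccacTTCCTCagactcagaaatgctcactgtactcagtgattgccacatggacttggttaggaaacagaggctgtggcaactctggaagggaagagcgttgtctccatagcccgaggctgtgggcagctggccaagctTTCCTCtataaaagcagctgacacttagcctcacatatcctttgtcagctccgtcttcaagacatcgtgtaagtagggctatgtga
S100a9: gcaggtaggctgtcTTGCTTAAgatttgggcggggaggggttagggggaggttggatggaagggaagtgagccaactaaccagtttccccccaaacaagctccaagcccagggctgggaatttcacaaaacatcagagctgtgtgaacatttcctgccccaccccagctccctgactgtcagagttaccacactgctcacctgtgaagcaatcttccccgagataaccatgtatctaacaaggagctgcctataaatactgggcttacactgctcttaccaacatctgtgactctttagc
S100a4: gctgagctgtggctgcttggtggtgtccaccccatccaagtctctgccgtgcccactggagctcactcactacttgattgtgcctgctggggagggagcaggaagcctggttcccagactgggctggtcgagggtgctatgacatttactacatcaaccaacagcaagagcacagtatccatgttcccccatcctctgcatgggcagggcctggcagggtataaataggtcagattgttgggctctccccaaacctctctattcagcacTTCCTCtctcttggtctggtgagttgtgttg
S100a6: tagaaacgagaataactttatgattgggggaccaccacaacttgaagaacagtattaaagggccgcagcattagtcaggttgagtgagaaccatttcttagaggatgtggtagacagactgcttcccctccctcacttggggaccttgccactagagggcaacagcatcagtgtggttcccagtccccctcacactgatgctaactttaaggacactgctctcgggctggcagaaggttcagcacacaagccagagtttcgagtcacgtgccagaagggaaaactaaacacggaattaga

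The S100a8 window held 2 matches to the PU.1 letters, from -170 to -165 and from -36 to -31 counted from the start, both on the opposite strand. The S100a9 window held 1 match to the C/EBP letters, from -236 to -229, and the S100a4 window 1 PU.1 match from 20 to 25 after the start. The letters of the 4 motifs were not found in the S100a6 window, and those of STAT and AP-1 in none of these 4. Over the table's 32851 promoters of the same length, 28.3% held the PU.1 letters, 10.8% those of C/EBP, 8.3% those of STAT and 7.81% those of AP-1. So PU.1 matches are common, and a match is a run of letters and not a shown site.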

How the data were processed

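RNA of 16 samples had been hybridised by the authors to 1-colour Agilent arrays read in the red channel, and Feature Extraction 11.5.1.1 gave each spot's processed intensity (array positions on mm9). The deposited value table holds log2 values that followed the quantile-normalized log2 intensity of the same arrays, and the submitters' processing notes name limma with no version. From the deposited intensity, spots flagged as outliers and control spots were left out, log2 was taken, each array's 75th percentile was subtracted and spots of a probe were averaged. Probes well above background on 3 or more of the 4 arrays of any group were tested with limma 3.58.1 in R 4.3.3 on 4 group means, with Benjamini-Hochberg adjustment and calls at FDR under 0.05 and fold above 1.5. The number of arrays, 4 per group, limits the precision.

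Samples were grouped by their titles and slides taken from the array barcode. The labels do not say whether replicate numbers pair the samples, and the main fit did not pair them. Residuals of same-numbered arrays correlated at 0.0214 to 0.481 in CDPs and -0.557 to 0.440 in MDPs. With other-numbered arrays the mean r ran from -0.099 to -0.00866 in CDPs and from -0.145 to 0.182 in MDPs. The highest same-numbered r of each cell type came from arrays on the same slide, so these values cannot settle whether the numbers pair. Genes outside the family were named where their level was most like S100a8 or S100a9 (5 each), or where a listed gene was called with the tumor; the other listed genes given were chosen after their values were seen. Gene names were updated through RefSeq by accession. Members and gene lists were chosen with earlier results of these data known. The S100a10 promoter was not used here. The fit was tested on simulated data. Alternatives covered background, scaling, filter, value table, slide, replicate block, samples in the fit, the methods' t-test, thresholds, probe choice and leaving out each array. The comparisons of CDPs with MDPs gene by gene, and a fit on slides 2 and 3 alone, were added after seeing the data.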

Additional observations from a re-analysis of the deposited data

Results flagged for a closer look

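S100a9 in CDP PyMT was flagged because its highest array, replicate 4 (1.98), lay far from the other three arrays, which agreed closely (0.93, 0.95 and 0.94), so that the gap made up 0.983 of the group's range. S100a13 in CDP PyMT was flagged for its lowest array, again replicate 4 (3.23 against 3.39 to 3.41), with a gap of 0.906 of the range. The range of S100a13 in that group was small beside its range in the other groups. In all, 40 groups of 4 values were examined, of which chance alone would flag about 1 in 20. The cause was not tested.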

How the results depend on the processing

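The counts of called S100 probes stayed within 1.5 times the reported ones under 71 of 77 alternatives and in all 48 fits that left out 1 array (0 in each tumor comparison and in the interaction, 4 in CDP against MDP Normal, 4 to 5 in CDP against MDP PyMT). In CDPs 1 probe, S100a8, became called with the tumor under normexp, slide as a fixed block, slide as a random block and the methods' t-test without adjustment, which also called 1 probe in MDPs. That t-test called 2072 probes of the whole array in CDPs and 1016 in MDPs, and normexp 392 in CDPs. On slides 2 and 3 alone 2 S100 probes were called in CDP against MDP PyMT, where 253 of all probes were. There 3 were called in CDP against MDP Normal, where 284 of all probes were. The replicate block gave the same counts of S100 calls, 0, 0, 0, 4 and 4, and whether the numbers pair the samples is not known. Over all probes, calls with the tumor in CDPs went from 491 to 1251 and 1440 with slide as a fixed or random block, and to 55 with only the groups compared in the fit. For S100a8 the CDP change ranged from 1.80 to 2.56 and the MDP change from 1.42 to 2.38 when single arrays were left out. None of the signs that turned belonged to a called change. In CDPs, S100a6 became 0.0051 with slide as a fixed block, and quantile normalization and the value table gave -0.027 and -0.026 for S100a10, -0.14 and -0.14 for S100a11, and -0.069 and -0.068 for S100a13. In MDPs the same pair gave -0.012 and -0.014 for S100a6, and -0.059 and -0.062 for S100a10. With slide as a fixed and a random block MDP changes were 0.094 and 0.062 for S100a4, -0.056 and -0.042 for S100a6, 0.056 and 0.038 for S100a1, and 0.097 and 0.075 for S100a13. Normexp gave 0.090 for S100a1 and 0.079 for S100a13 in MDPs, and median scaling 0.013 for S100a13. Leaving out single arrays moved CDP changes between -0.159 and 0.0079 for S100a6 and between -0.0155 and 0.239 for S100a13, and MDP changes between -0.226 and 0.052 for S100a4, -0.059 and 0.114 for S100a6, -0.070 and 0.067 for S100a10, -0.167 and 0.087 for S100a1, and -0.126 and 0.070 for S100a13. The cause of these turns was not tested. The methods' t-test and the fit of only the groups compared could not be applied to the interaction. The number of arrays and the dim S100a9 signal in MDP Normal limit what could be detected.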
